A study of Mus musculus with 384 samples.

Results

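The interleukin-1 and inflammasome genes described here are 9 genes, Il1b, Il1rn, Il1r2, Il1rap, Nlrp3, Pycard, Casp1, Casp4 and Gsdmd, chosen by name from the 23420 genes of the deposited expression table. The study isolated single cells from spinal cords of mice by flow sorting after staining for CD45, CD11b and CX3CR1, and sequenced each cell with SmartSeq2, a plate-based full-length protocol. All cells carried the Optn KO genotype, a loss of the gene for the autophagy receptor optineurin, so no knockout effect can be measured. The labels give replicate 1 (plates 1 and 2) and replicate 2 (plates 3 and 4), but not whether these are separate mice, so p-values measure only the spread between 2 samples, which may be technical. Of 384 wells listed, 326 had a column in the table and 58 were not analysed here. Expression is in TPM, a share of transcripts corrected for gene length that sums to 1000000 in each cell and carries no depth, so the number of genes above 0 is given in its place.

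Neutrophils were the 286 cells with at least 10000 TPM of S100a8 plus S100a9, against 40 other cells. The 5 values just inside this limit ran between 12512 and 19345 TPM and the 5 just outside between 1795 and 4019 TPM. The series title names microglia, but no cell had 3 or more of 13 microglia markers above 0, and Sall1, C1qc, Fcrls and Slc2a5 were listed at 0 in every cell. The summed level of the 13 averaged 48.4 TPM in neutrophils and 113 TPM in other cells. Among neutrophil markers that the limit did not use, Cxcr2 was above 0 in 278 and Csf3r in 267 of the 286 cells. Optn was listed at 0 in every cell. The other cells are mixed: 28 of the 40 had 3 or more of 8 monocyte markers above 0, against 12 of the 286 neutrophils. The summed level of those 8 markers averaged 2034 TPM in neutrophils and 8597 TPM in other cells. Csf3r averaged 2793 TPM and Cxcr2 1289 TPM in the remaining 12 other cells (above 0 in 10 each), against 117 and 3.82 TPM in the 28 (above 0 in 20 and 25). Retnlg, another neutrophil marker, was above 0 in 5 of the 12 and 4 of the 28. The median number of genes above 0 was 1604.5 in neutrophils and 3027.5 in other cells.

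Interleukin-1 beta is made as an inactive precursor. A sensor such as NLRP3 assembles with the adaptor ASC and caspase-1 into an inflammasome, and the caspase then cuts the cytokine and the pore protein gasdermin D. Outside the cell, a receptor antagonist and a decoy receptor limit the signal, and neutrophils are a known source of the cytokine.

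Il1b and Nlrp3 were often above 0 in the same neutrophils and Pycard seldom with Il1b, so the 250 bases before their RefSeq starts are shown (GRCm38.p6). Of the 9 genes, 8 had such a window in the table used, 12 windows in all. Capitals mark matches on either strand to an NF-kB consensus, the AP-1 motif TGANTCA, the PU.1 motif GAGGAA and the TATA motif TATAAA. These are found in 3.90%, 6.75%, 23.3% and 12.4% of the 32817 windows of this length.
Il1b, chr2:129371140-129371389, minus strand: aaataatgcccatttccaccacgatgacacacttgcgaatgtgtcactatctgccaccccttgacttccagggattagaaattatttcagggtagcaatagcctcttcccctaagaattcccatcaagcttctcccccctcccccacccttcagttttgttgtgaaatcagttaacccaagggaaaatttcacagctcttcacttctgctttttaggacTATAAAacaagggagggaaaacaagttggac
Nlrp3, chr11:59541319-59541568, plus strand: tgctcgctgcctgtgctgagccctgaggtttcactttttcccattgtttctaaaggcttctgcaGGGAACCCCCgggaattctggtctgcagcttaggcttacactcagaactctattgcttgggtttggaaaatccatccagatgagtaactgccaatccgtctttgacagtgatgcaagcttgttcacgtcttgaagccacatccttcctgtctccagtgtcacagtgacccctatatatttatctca
Nlrp3, second start, chr11:59542436-59542685, plus strand: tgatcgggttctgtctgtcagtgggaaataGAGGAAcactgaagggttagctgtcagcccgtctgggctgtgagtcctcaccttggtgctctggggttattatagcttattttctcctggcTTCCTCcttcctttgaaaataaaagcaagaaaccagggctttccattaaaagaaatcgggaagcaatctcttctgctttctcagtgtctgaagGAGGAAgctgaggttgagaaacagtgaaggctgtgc
Pycard, chr7:127993868-127994117, minus strand: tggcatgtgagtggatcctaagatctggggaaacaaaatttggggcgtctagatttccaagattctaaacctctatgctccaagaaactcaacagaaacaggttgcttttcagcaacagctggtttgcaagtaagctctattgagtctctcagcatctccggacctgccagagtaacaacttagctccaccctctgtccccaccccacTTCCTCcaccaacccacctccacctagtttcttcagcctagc
The Il1b window held 1 TATA match, 25 bases before the start, and no match to the other motifs. The first Nlrp3 window held 1 NF-kB match and the second 3 PU.1 matches, while the Pycard window held 1 PU.1 match. The NF-kB consensus was chosen after a looser pattern, GGGNNNNNCC, had been scanned and found in 45.8% of windows. Under that looser pattern too, the Il1b and Pycard windows held 0 matches and the first Nlrp3 window 1. Casp4 was the only other gene with a consensus match, 2 in each of its overlapping windows. Those 2 matches overlap each other and lie on the same stretch of bases in both windows. A match is a description of letters and not a binding site.

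Gene positions are from GRCm38 (GENCODE vM21). Il1b (chr2:129364570-129371139, minus strand), the cytokine itself, had the highest mean TPM of the 9 genes in both classes and was unevenly spread over cells. It was above 0 in 169 of 286 neutrophils (59.1%, exact 95% interval 53.1 to 64.8%) and in 23 of 40 other cells (57.5%, 40.9 to 73.0%). These Clopper-Pearson intervals cover counting error only. Per plate, Il1b was above 0 in 58.2%, 59.4%, 53.2% and 65.4% of neutrophils, against 40%, 53.8%, 62.5% and 77.8% of other cells, so the plates of both classes overlapped. Its mean was 6139 and 7119 TPM in neutrophils of replicates 1 and 2, against 3850 and 3841 TPM in other cells. The replicates did not overlap, and the difference was 0.78 on the log2(mean TPM + 1) scale (SE 0.11, limma, Benjamini-Hochberg adjusted p = 0.0118). The 29 neutrophils with the most Il1b held 52.5% of its summed TPM. The median of the 169 positive neutrophils was 6278 TPM, and the highest was 73573 TPM.

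Il1rn (chr2:24336853-24351494, plus strand) encodes the receptor antagonist that blocks interleukin-1 signalling, and Il1r2 (chr1:40074079-40125231, plus strand) the decoy receptor that binds the cytokine without signalling. Il1rn was above 0 in 62.9% of neutrophils and 15.0% of other cells. Its means were 541 and 473 TPM in neutrophils, against 212 and 0.0424 TPM in other cells, so that the fold (5.09 on the log2 scale, SE 2.33, limma adjusted p = 0.170) depends on the pseudocount of 1 and did not pass. Il1r2 had the highest share of the 9 genes in neutrophils, 78.7%, against 17.5% in other cells, and the plates did not overlap (76.1 to 80.5% of neutrophils, 11.1 to 25% of other cells). Its mean TPM was 933 and 969 in neutrophils, against 679 and 483 in other cells. That difference of 0.73 (SE 0.22) missed the threshold of 0.05 (limma adjusted p = 0.0710) and passed with the replicate as a block (limma adjusted p = 0.0408). Il1rap (chr16:26581704-26730117, plus strand), the co-receptor that signalling needs, was low in both classes, above 0 in 22.0% of neutrophils and 25% of other cells, with means of 18.7 and 23.8 TPM against 17.8 and 17.2 TPM (difference 0.26, SE 0.56, limma adjusted p = 0.766).

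**Figure D1:**
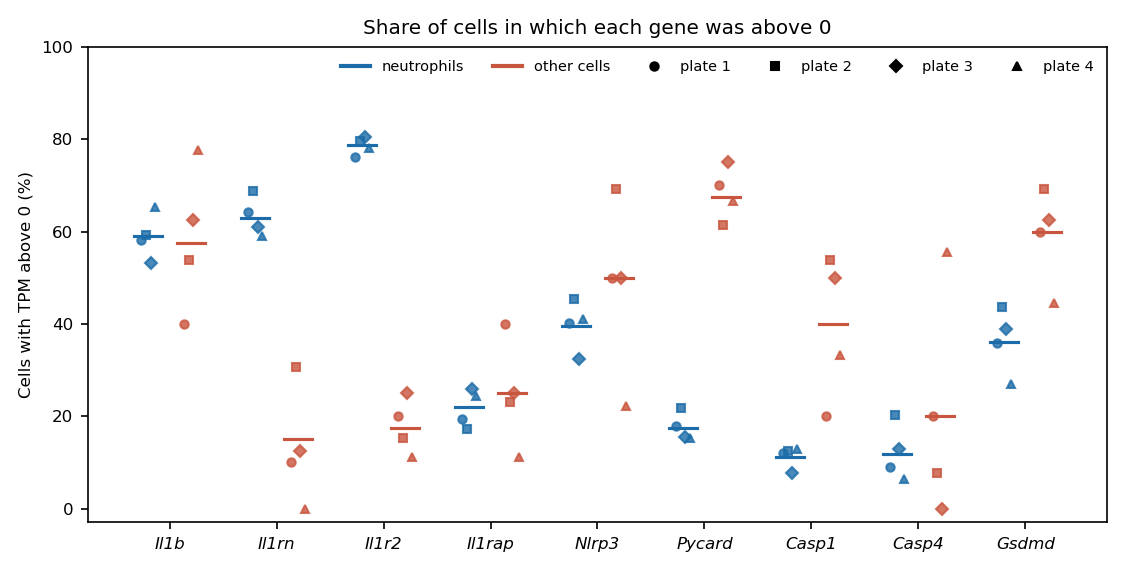
Share of cells (%) with TPM above 0 for each of the 9 genes, neutrophils left of other cells; symbols are the 4 plates and lines the share over all cells of a class. Il1rn and Il1r2 plates sit higher in neutrophils, at 59.0 to 80.5%, and Pycard plates lower, at 15.4 to 21.9%.

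The inflammasome genes had another pattern, in that the adaptor and the caspase were rarer than the sensor over all neutrophils. In other cells only the caspase was rarer than the sensor. The order turned in the neutrophils with the most granule transcripts, defined below (Nlrp3 12.8%, Pycard 25.5% and Casp1 20.2%). Nlrp3 (chr11:59541568-59566956, plus strand), the sensor, was above 0 in 39.5% of neutrophils and 50.0% of other cells, with means of 102 and 129 TPM against 211 and 47.9 TPM. The groups overlapped (difference 0.19, SE 0.71, limma adjusted p = 0.870). The 211 TPM rest on 1 of 23 other cells, at 4058 TPM, without which that mean is 36.5 TPM. Neutrophils were then above other cells in both replicates, by 1.44 on the log2 scale, which is a description with no test because the cell was picked by its value. Pycard (chr7:127989708-127993867, minus strand), which encodes the adaptor ASC, was above 0 in 17.5% of neutrophils and 67.5% of other cells, and its means were 31.4 and 26.2 TPM against 118 and 111 TPM. It fell by 1.96 on the log2 scale (SE 0.40, limma adjusted p = 0.0270), with no overlap between replicates or between plates in its shares. Casp1, the inflammasome protease, was above 0 in 11.2% of neutrophils and 40.0% of other cells, with means of 55.8 and 59.0 TPM against 167 and 154 TPM. It also fell, by 1.47 (SE 0.33, limma adjusted p = 0.0336). With averages per plate and the plate as a block, Pycard (-1.88, limma adjusted p = 0.0512) and Casp1 (-1.09, p = 0.192) missed the threshold, and without the filter on low values none of the 3 calls among the 9 genes passed (limma adjusted p = 0.0846 to 0.0922).

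Casp4, which encodes caspase-11, a protease that senses bacterial lipopolysaccharide in mouse, was above 0 in 11.9% of neutrophils and 20% of other cells. Its means, 41.7 and 13.1 TPM in neutrophils against 22.0 and 96 TPM in other cells, overlapped (difference -0.94, SE 0.92, limma adjusted p = 0.493). Gsdmd (chr15:75862327-75867408, plus strand), the pore-forming effector, was above 0 in 36.0% of neutrophils and 60.0% of other cells. Its means were close, 188 and 225 TPM against 213 and 229 TPM (difference -0.11, SE 0.26, limma adjusted p = 0.796). Casp1 (chr9:5298517-5307265) and Casp4 (chr9:5308828-5336783) are neighbours on the plus strand in GRCm38.

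Of the 9 genes, 1 was called higher in neutrophils, where 3.71% of the 7109 genes tested were, and 2 were called lower, where 16.5% were. In either direction that is 3 of 9 against 20.2% of all genes. The median difference was 0.19 over the 9 genes and -0.77 over all genes tested. The 9 genes were chosen with earlier results of these data known, so this contrast is a description. Fold changes on this scale understate the change of low genes.

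**Figure D2:**
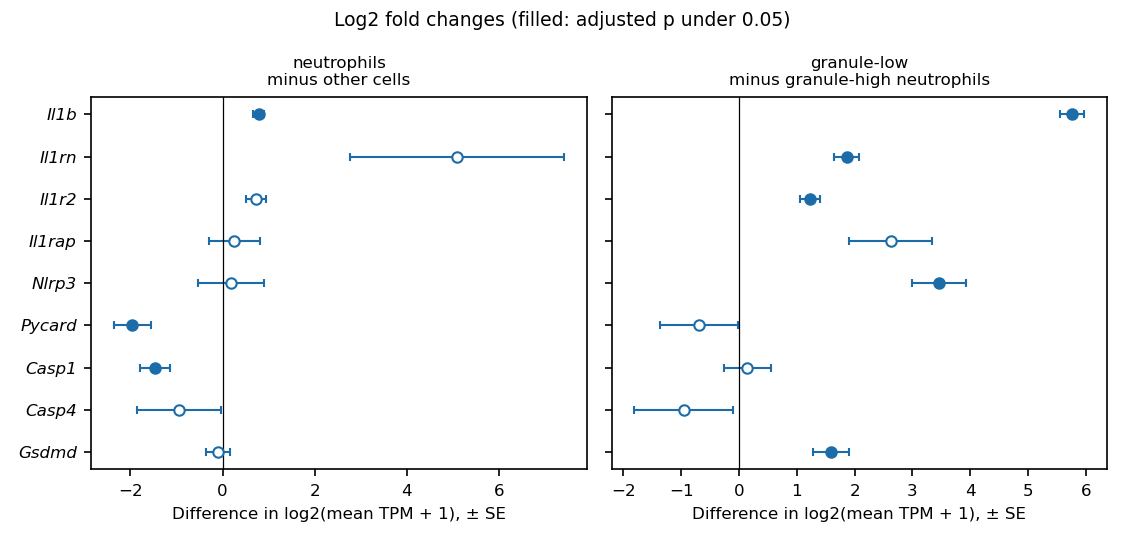
Difference in log2(mean TPM + 1) with its SE for the 9 genes, neutrophils minus other cells at the left and granule-low minus granule-high neutrophils at the right; filled points had a limma adjusted p under 0.05. At the left Il1b is filled above 0 and Pycard and Casp1 below, and at the right 5 genes are filled, with Il1b at 5.76.

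Which other cells were taken as the comparison changed several of these values. In the 28 other cells with 3 or more monocyte markers, Il1b averaged 950 TPM, Il1rn 2.50 TPM and Il1r2 0.0486 TPM, against 10603, 401 and 1986 TPM in the 12 with fewer. Il1r2 was above 0 in 1 of those 28 cells and in 6 of the 12, and Pycard in 24 of 28 and 3 of 12. Against those 28 cells alone, a choice made after seeing the data, neutrophils were higher for Il1b (2.86, limma adjusted p = 0.00760), Il1rn (7.70, p = 0.00511), Il1r2 (9.82, p = 0.000792) and Nlrp3 (1.97, p = 0.0236). Pycard (-2.31, limma adjusted p = 0.0139) and Casp1 (-1.84, p = 0.0127) were lower there too. With the neutrophil limit at 50000 TPM, Il1b was lower in neutrophils (-1.22, limma adjusted p = 0.00989). That limit left 264 neutrophils and 62 other cells, so cells counted as neutrophils above joined the other cells. Among cells with at least 2000 genes above 0, Il1b was above 0 in 23.2% of 69 neutrophils and 50.0% of 30 other cells, and its difference was -1.21 (limma adjusted p = 0.144). With log2 values averaged over cells in place of TPM, Il1b differed by 0.69 (limma adjusted p = 0.449). The higher mean of Il1b in neutrophils therefore depends on these choices.

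The part of the number of genes above 0 in the lower Pycard and Casp1 was not tested, but it moved with Pycard. In neutrophils with at least 2000 genes above 0, Pycard was above 0 in 44.9%, against 83.3% of other cells with as many. Casp1 was above 0 in 20.3% of those neutrophils and 50.0% of those other cells. Across neutrophils, Spearman's rho of Pycard with the number of genes averaged 0.39 over the 4 plates, as a description over cells that share a library preparation.

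Of the interleukin-1 and inflammasome genes described here, Il1b and Nlrp3 differed most between neutrophils with low and high granule transcripts. Neutrophils build their granules early in the marrow, and transcripts of the specific granule proteins fall as the cells mature. The classes used here rank cells by such transcripts only, and stage itself was not measured. Cells were ranked within each plate by the mean log2(TPM + 1) of Ltf, Camp, Ngp, Lcn2, Mmp8, Cd177 and Chil3, and the 94 lowest and 94 highest were compared, with 98 between. Granule genes took 0.725% of TPM in granule-low cells and 18.1% in granule-high cells, and the median number of genes above 0 was 1375 in granule-low and 1983.5 in granule-high cells.

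Il1b averaged 15244 and 18893 TPM in granule-low neutrophils of replicates 1 and 2, against 256 and 379 TPM in granule-high neutrophils. The groups were far apart, with a 54.3-fold difference (5.76 on the log2 scale, SE 0.21, limma adjusted p = 0.000411). It was above 0 in 94.7% of granule-low, 51.0% of granule-middle and 31.9% of granule-high neutrophils, and in each plate the granule-low share, 90.5 to 100%, was above the granule-high share, 18.2 to 38.5%. Nlrp3 averaged 230 and 316 TPM in granule-low cells against 16.9 and 33.0 TPM in granule-high cells (3.46, SE 0.46, limma adjusted p = 0.00851). Its share above 0 was 75.5%, 30.6% and 12.8% in the low, middle and high classes, the same order as for Il1b.

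The antagonist and the decoy receptor were also higher, by less. Il1rn averaged 877 and 801 TPM in granule-low cells against 206 and 257 TPM in granule-high cells (1.86, SE 0.22, limma adjusted p = 0.00593). Il1r2 averaged 1473 and 1488 TPM against 575 and 692 TPM (1.23, SE 0.17, limma adjusted p = 0.00912). Neither overlapped between replicates, yet the share of cells with Il1r2 was 85.1% in granule-low and 83.0% in granule-high cells, and the median of positive cells was 1334 TPM in granule-low and 507 TPM in granule-high cells. The ratio of mean Il1b to mean Il1rn was 17.4 and 23.6 in granule-low cells, 5.65 and 6.21 in granule-middle cells and 1.24 and 1.48 in granule-high cells. Among the neutrophil classes, mean Il1b thus exceeded mean Il1rn most in granule-low cells. Over both replicates the ratio was 20.6 there and 31.5 in other cells, where Il1rn averaged 0.0424 TPM in replicate 2. In plate 4 this ratio was 47.5 in granule-low cells, above the other plates (13.3 to 23.6).

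Gsdmd averaged 268 and 356 TPM in granule-low cells against 94.1 and 110 TPM in granule-high cells (1.59, SE 0.31, limma adjusted p = 0.0241). Its share above 0 was 34.0% in both classes, and the median of positive cells was 931 TPM in granule-low and 225 TPM in granule-high cells. Il1rap averaged 40.6 and 48.8 TPM in granule-low cells against 3.98 and 9.97 TPM, without passing (2.62, SE 0.72, limma adjusted p = 0.0638). Pycard, Casp1 and Casp4 did not follow Il1b. Pycard averaged 13.3 and 19.5 TPM in granule-low cells against 18.8 and 38.1 TPM in granule-high cells (limma adjusted p = 0.540), and was above 0 in 6.38% of granule-low and 25.5% of granule-high cells. Casp1 averaged 72.4 and 76.7 TPM against 81.4 and 55.5 TPM (limma adjusted p = 0.843), and Casp4 31.5 and 6.46 TPM against 33.9 and 25.2 TPM (limma adjusted p = 0.504). The replicate means of all 3 overlapped between the classes. The plate shares of Pycard did not, at 3.85 to 9.52% of granule-low and 20 to 30.8% of granule-high cells. Casp1 was above 0 in 6.38% of granule-low and 20.2% of granule-high cells, and its plate shares did not overlap either (3.85 to 9.52% and 12 to 31.8%). A higher median of positive granule-low cells was not particular to Il1r2 and Gsdmd. It was 1232 against 312 TPM for Casp1 and 228 against 96.3 TPM for Pycard, over 6 positive granule-low cells each. For Casp4 it was 152 against 155 TPM.

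**Figure D3:**
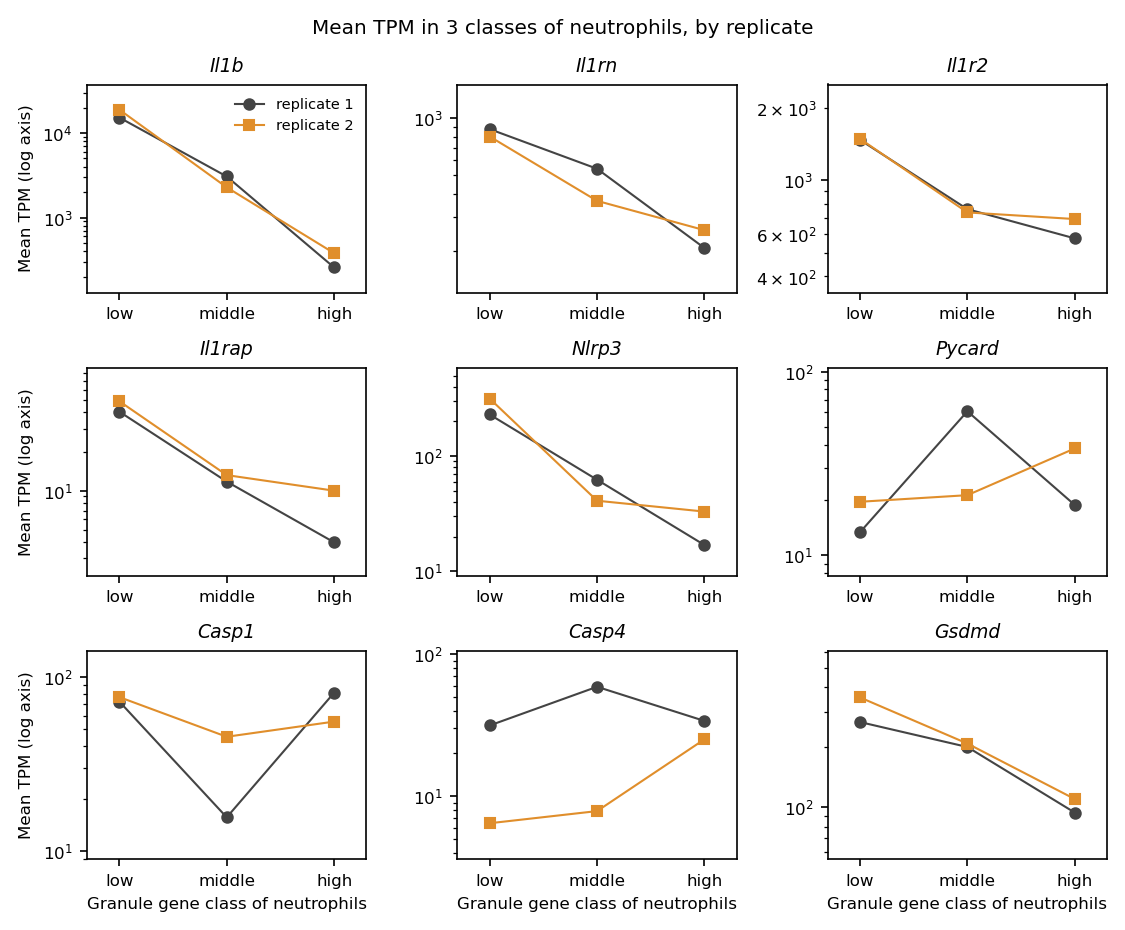
Mean TPM (log axis) of each gene in granule-low, granule-middle and granule-high neutrophils; each line is 1 of the 2 replicates. Il1b, Nlrp3, Il1rn, Il1r2, Il1rap and Gsdmd are highest in the granule-low class in both replicates. The highest class of Pycard, Casp1 and Casp4 differs between replicates. In both replicates Pycard and Casp4 are lowest in the granule-low class and Casp1 in the granule-middle class.

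Of the 9 genes, 5 were called higher in granule-low cells, where 8.63% of 4568 genes tested were, and 0 lower, where 4.23% were. In either direction 12.9% of all genes were called. At an unadjusted p under 0.05, 1312 of all genes passed. The median difference was 1.59 over the 9 genes and 0.23 over all genes. This contrast too is a description, because the genes were chosen with earlier results of these data known. When TPM were rescaled without granule and S100 genes, a check added later with the values known, the median over all genes moved by -0.44. The share of calls that were higher was then 45.3%, against 67.1% before. After that rescaling, Il1b (5.37, limma adjusted p = 0.000679), Nlrp3 (3.11, p = 0.0150), Il1rn (1.43, p = 0.0138) and Il1r2 (0.82, p = 0.0293) were still called, and Gsdmd (1.13, p = 0.0719) was not. No gene was tested against the shift itself. With the score adjusted for genes above 0, Il1b stood at 5.01 (limma adjusted p = 0.000372). With log2 values averaged over cells, Il1r2 (1.21, limma adjusted p = 0.0511) and Gsdmd (0.51, p = 0.475) were not called. The 69 neutrophils with at least 2000 genes above 0 were ranked anew within plates, and the 21 lowest and 21 highest compared. These are not the classes used above, whose granule-low cells had a median of 1375 genes above 0. Between these 21 and 21 cells no gene was called by limma (914 at an unadjusted p under 0.05). Il1b differed by 5.77 (SE 2.47, limma adjusted p = 0.360). Il1rn (-2.59), Il1r2 (-1.12) and Gsdmd (-0.24) turned direction there, and Nlrp3 did not pass the filter on low values. Without the filter on low values, Il1b alone of the 5 genes was called (limma adjusted p = 0.0474). The same rescaling moved the comparison of neutrophils with other cells by 0.39, with 33.7% of calls higher against 18.4% before. Pycard (-1.54, limma adjusted p = 0.0551) and Casp1 (-1.06, p = 0.0812) were then no longer called, and Il1r2 was (1.03, p = 0.0377).

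**Figure D4:**
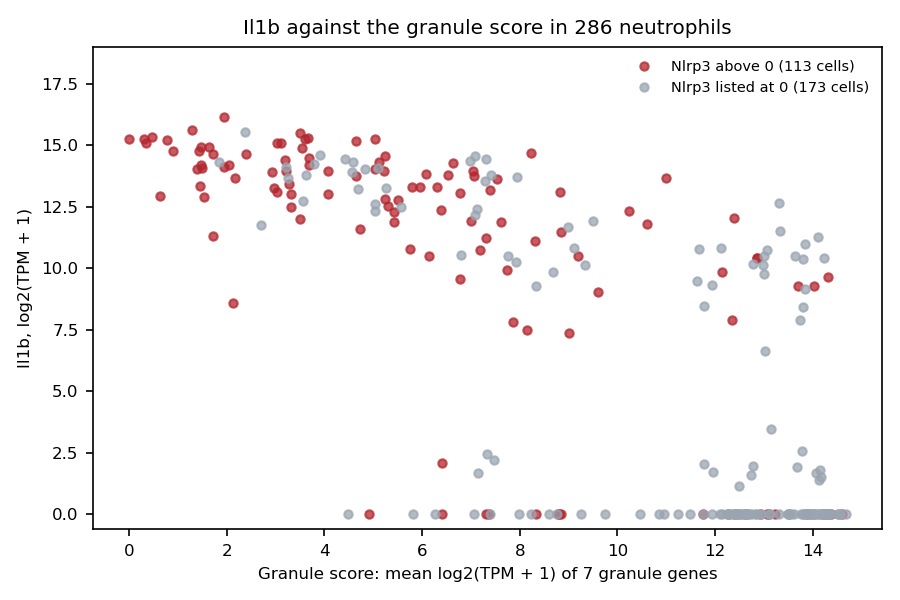
Il1b, as log2(TPM + 1), against the granule score in each of 286 neutrophils, coloured by whether Nlrp3 was above 0 (113 cells) or listed at 0. Cells with low scores have high Il1b and mostly Nlrp3, and the row at 0 lies mainly at high scores.

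Across neutrophils of a plate, Spearman's rho of Il1b with the granule score ranged between -0.83 and -0.67 (64 to 78 cells a plate), and that of Nlrp3 between -0.66 and -0.46. The genes most like Il1b, among 4689 genes above 0 in at least 10% of neutrophils, were Dusp1, a phosphatase of MAP kinases (mean rho 0.73), Srgn, the granule proteoglycan serglycin (0.73), Junb, an AP-1 subunit (0.70), Csf3r, the G-CSF receptor (0.69), and Ftl1, a ferritin chain (0.67). Nlrp3 shared Dusp1 (0.61), Srgn (0.57) and Junb (0.56), with Zfp36 (0.56), whose protein promotes decay of cytokine messages, and Btg2 (0.54). The correlations of Il1rn (Junb, Selplg, Amica1, Srgn and Cd300ld, 0.42 to 0.38) and Il1r2 (Srgn, Junb, Clec4d, Sfxn5 and Notch2, 0.41 to 0.37) were weaker. These are descriptions over cells that share libraries and differ in depth.

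Co-detection followed the same split. Of 169 neutrophils with Il1b above 0, 57.4% had Nlrp3 above 0, against 13.7% of 117 with Il1b at 0. By plate these shares were 61.5%, 65.8%, 48.8% and 54.9% with Il1b, against 10.7%, 15.4%, 13.9% and 14.8% without it, so the 2 sets of plates did not overlap. The difference averaged 44.3 percentage points ± 9.04 (SD, n = 2 replicates). Il1b-positive cells had fewer genes above 0 (median 1492, against 1940), and the shares were 65.5% against 25% in cells below the median of genes detected and 39.6% against 10.1% in cells above it. By granule class, with no test of a difference between classes, Nlrp3 was above 0 in 69 of 89 Il1b-positive and 2 of 5 Il1b-negative granule-low cells, and in 46.0% of 50 against 14.6% of 48 granule-middle cells. In granule-high cells it was above 0 in 16.7% of 30 Il1b-positive and 10.9% of 64 Il1b-negative cells.

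Il1rn was above 0 in 72.8% of Il1b-positive and 48.7% of Il1b-negative neutrophils. It was higher in 3 of 4 plates (36.6, 44.5 and 20.7 points) and differed by -0.44 points in plate 4. Il1r2 was higher by 10.4 points ± 3.35 (SD, n = 2 replicates), in 4 of 4 plates. Pycard ran the other way, above 0 in 10.1% of Il1b-positive and 28.2% of Il1b-negative neutrophils, lower in 4 of 4 plates (-18.2 points ± 2.19, SD, n = 2 replicates). Its shares were 4.31% against 7.14% in cells below the median of genes detected and 22.6% against 34.8% in cells above it. Casp1 was lower in 4 of 4 plates, with differences of -11.3 to -1.02 points, and its mean of -6.03 points was within its spread (SD 6.65, n = 2 replicates). Il1rap, Casp4 and Gsdmd had no common direction over plates.

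**Figure D5:**
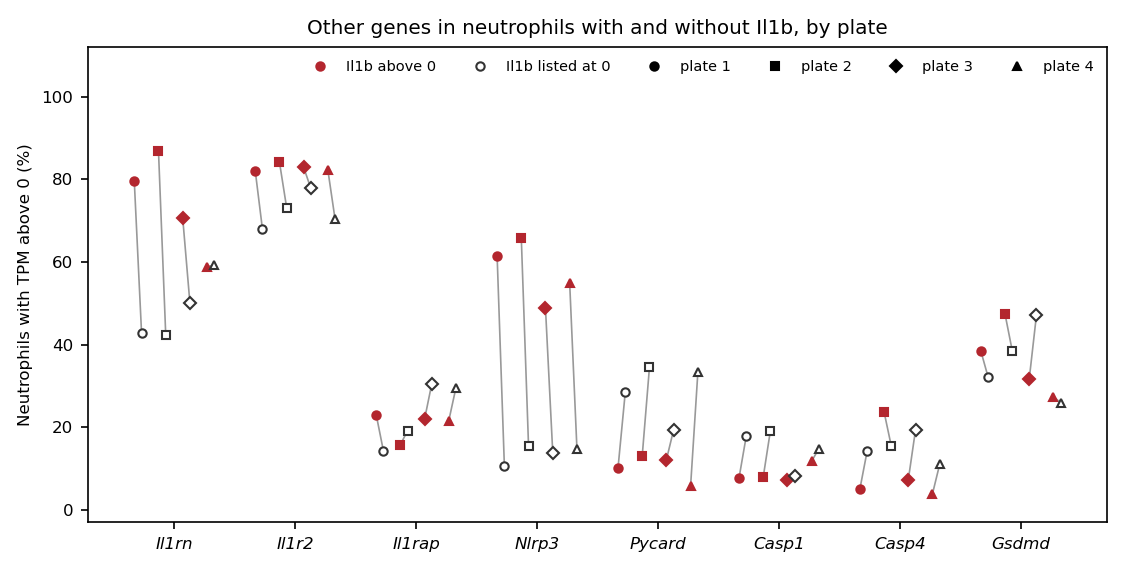
Share of neutrophils (%) with each other gene above 0 among cells with Il1b above 0 (filled) and listed at 0 (open), joined within each of 4 plates. Nlrp3 is higher with Il1b in every plate (34.9 to 50.8 points) and Pycard lower in every plate.

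Il1b and Il1rn were both above 0 in 123 neutrophils (43.0%), Il1b alone in 46, Il1rn alone in 57 and neither in 60. Among other cells both were above 0 in 6, Il1b alone in 17, Il1rn alone in 0 and neither in 17. Few cells held the whole set of messages. Nlrp3, Pycard and Casp1 were above 0 together in 1 of 286 neutrophils and 5 of 40 other cells, and Il1b with all 3 in 0 neutrophils and 2 other cells. Their separate shares were 39.5%, 17.5% and 11.2% of neutrophils and 50.0%, 67.5% and 40.0% of other cells. Joint counts this low can follow from those separate shares alone. Casp1 or Casp4 was above 0 in 20.6% of neutrophils and 52.5% of other cells. The median cell had 3 of the 9 genes above 0 among neutrophils and 4 among other cells, and no cell had all 9. A gene listed at 0 in a single cell may have been missed, so these counts are of detected messages only. In other cells, Il1rn and Il1r2 were found only where Il1b was, in 6 and 7 of 23 Il1b-positive and 0 of 17 Il1b-negative cells. The other cells are mixed, and 4 of those Il1rn and 6 of those Il1r2 cells came from 1 subset. That subset was the 11 cells with fewer monocyte markers and Csf3r or Cxcr2 above 0, of which 8 had Il1b. The lowest positive values were 0.72 TPM for Il1rn and 1.36 TPM for Il1r2.

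Cycling neutrophils were the 66 with 3 or more of 16 proliferation genes above 0. Il1b was above 0 in 47.0% of these and 62.7% of the other 220, and Nlrp3 in 25.8% of cycling and 43.6% of other neutrophils. Plate 1 ran the other way for Il1b (62.5% of cycling and 56.9% of other neutrophils), and its plate ranges overlapped (35.0 to 62.5% and 56.9 to 70.0%). The Nlrp3 plate shares did not overlap (15.0 to 33.3% of cycling and 38.6 to 50.0% of other neutrophils). The median number of genes above 0 was 2030 in cycling and 1531.5 in other neutrophils, and its part in these shares was not tested. The granule class differences of Il1b (5.91) and Nlrp3 (4.04) were called without the cycling cells (limma adjusted p = 0.00228 and 0.0446).

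Of 45 further genes of the pathway, all were in the table, 3 under older names, and Il1a, Il33, Il36rn, Il1r1, Nlrp6 and Casp12 were listed at 0 in every cell. Il1r1 is the signalling receptor for interleukin-1, and 0 of 286 allows up to 1.05% of neutrophils listed above 0 for it, which sets no limit on cells that express it below detection. In all, 9283 of the 23420 genes were at 0 in every cell. Of the 33 tested between neutrophils and other cells, 2 were higher and 2 lower, beside 3.71% higher and 16.5% lower over all genes tested. The higher were Gsdme (158 and 187 TPM against 10.1 and 2.60 TPM, limma adjusted p = 0.0118) and Serpinb1a (384 and 422 TPM against 51.4 and 23.3 TPM, limma adjusted p = 0.00900). Gsdme encodes another gasdermin, and Serpinb1a an inhibitor of neutrophil proteases with close paralogs, so its counts are uncertain. The 2 lower genes were Casp8, an apoptotic caspase (limma adjusted p = 0.0134), and P2rx7, the ATP-gated channel that can trigger NLRP3 (limma adjusted p = 0.0273). P2rx7 averaged 0.0291 and 0.0226 TPM in neutrophils against 33.9 and 15.8 TPM in other cells.

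Between granule-low and granule-high neutrophils, 22 of these genes were tested, with 5 higher and 2 lower, beside 8.63% higher and 4.23% lower over all genes tested. Il36g, an interleukin-1 family cytokine, averaged 1054 and 1164 TPM against 296 and 198 TPM (limma adjusted p = 0.00535). Ninj1, which ruptures the membrane in lytic death, averaged 692 and 752 TPM against 89.0 and 78.7 TPM (limma adjusted p = 0.00175). Txnip, which encodes a thioredoxin-binding protein that can activate NLRP3 (limma adjusted p = 0.00851), Nlrp12, a relative of Nlrp3 (p = 0.0170), and Myd88, the adaptor of interleukin-1 receptors (p = 0.0477), were also higher. Il18bp, the decoy for interleukin-18, was lower, at 15.6 and 10.1 TPM against 123 and 92.4 TPM (limma adjusted p = 0.0169), as was Serpinb1a (limma adjusted p = 0.00912).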

How the data were processed

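The authors deposited TPM values per gene and cell in 1 table, and RSEM and the mm10 build are named in the submitters' processing notes. The sources used here do not name the aligner, the annotation or any version. TPM are not counts, so no count model was used. TPM were averaged over the cells of a class in each replicate, and classes were tested on log2(mean TPM + 1) by limma 3.58.1 in R 4.3.3, with its robust and trend options, over all genes with a mean of at least 5 TPM and above 0 in at least 10% of the cells of either class, without S100a8 and S100a9 and, between granule classes, without the score genes. Calls had a Benjamini-Hochberg adjusted p under 0.05. The fits were tested on simulated data. Shares have exact 95% intervals. Both classes come from the same labelled replicate, so replicate numbers pair them, and a fit with the replicate as a block was an alternative. An exact permutation test of 2 against 2 averages cannot go below 0.333.

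All 9 members were named, with pathway genes that passed in either fit (at most 8 by smallest p, with P2rx7 and Myd88 added after their values were seen). The 5 genes most like Il1b, Il1r2, Nlrp3 and Il1rn, with the members left out, were named too. Members and lists were chosen with earlier results of these data known. Promoter motifs were chosen during the work: the loose NF-kB pattern was scanned first, and the consensus was added once its result had been seen, so both are reported. Python 3.11.15, pandas 2.3.3, numpy 2.4.6 and scipy 1.17.1 were used.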

Additional observations from a re-analysis of the deposited data

Results flagged for a closer look

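Over 4 plates, 80 sets of plate values were checked for a plate far from the others, and 2 were found, where chance alone gives about 1 in 20. Nlrp3 averaged 352 TPM in other cells of plate 2, against 28.0 to 59.6 TPM in the other plates. A single cell at 4058 TPM makes this value, and the other 12 cells of plate 2 averaged 43.6 TPM, inside the range of the other plates. Pycard averaged 54.5 TPM in granule-high neutrophils of plate 4, against 16.2 to 21.2 TPM in the other plates. Without its highest cell (415 TPM) the Pycard mean of plate 4 was 40.1 TPM.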

How the results depend on the processing

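The number of genes called in neutrophils against other cells, 264 higher and 1172 lower, was 34 and 83 without the filter on low values, 1857 lower with log2 values averaged over cells, 121 higher at a 50000 TPM limit, 163 and 602 with at least 2000 genes above 0 per cell, 445 higher against monocyte-marked other cells and 715 lower after rescaling. For granule classes, 394 higher and 193 lower, it was 102 lower at a pseudocount of 0.1, 13 and 2 without the filter, 254 and 1075 with averaged log2 values, 86 lower with the score adjusted for genes detected and 235 higher after rescaling. With 2000 genes and the neutrophils ranked anew it was 0 and 0 by limma (914 at an unadjusted p under 0.05, 21 cells against 21). The Il1b share of neutrophils was 53.8% at 10 TPM or more, 59.9% and 56.8% at limits of 1000 and 50000 TPM and 23.3% with 2000 genes. Nlrp3 co-detection was 20.3 points with 2000 genes, and 37.9 to 50.7 points with 1 replicate left out. Without replicate 1 or 2, Il1b differed by 0.67 to 0.89 between neutrophils and other cells and 5.64 to 5.89 between granule classes. The replicate block gave 369 and 1467 calls in the first comparison and 381 and 180 in the second, and changed no member's call other than Il1r2.

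Some directions turned. Between neutrophils and other cells, Il1b was -1.22 at 50000 TPM and -1.21 with 2000 genes. Il1rap was -0.32 with averaged log2 values, -1.98 at 50000 TPM and -1.22 with 2000 genes. Nlrp3 was -0.062, -1.34 and -0.97 under the same settings and ran between -1.04 and 1.41 with 1 replicate left out (1.44 without the other cell with the most Nlrp3). Casp4 was 0.33 with plate averages and ran between -2.78 and 0.90 with 1 replicate left out. Gsdmd was 0.34 at 1000 TPM, 0.18 against monocyte-marked cells and 0.21 after rescaling. Between granule classes, Casp1 was -0.95 with averaged log2 values and -0.11 with the neutrophils split at the median score. It was -0.27 with the adjusted score, -0.24 after rescaling and ran between -0.17 and 0.46 with 1 replicate left out. With 2000 genes and the neutrophils ranked anew, Il1rn was -2.59, Il1r2 -1.12, Pycard 0.94, Casp1 -4.67, Casp4 1.56 and Gsdmd -0.24, none called. Nlrp3 gave no value there because it did not pass the filter. In co-detection, Il1rap was 1.27 points at 1 TPM or more and -8.42 to 2.81 with 1 replicate left out, and Casp1 8.87 with 2000 genes. Gsdmd was 0.26 at 1 TPM or more, 0.50 and 2.05 at 1000 and 50000 TPM, 0.11 with 1000 genes, 6.99 within cells of like genes detected and -8.75 to 7.67 with 1 replicate left out. Losing the filter adds genes to the test. The cause of the other changes was not tested. Alternatives with 2000 genes, monocyte-marked cells, rescaling and that cell left out were chosen after seeing the data.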
